A study of Mus musculus with 4 samples.

Results

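The proteasome genes described here are 8 subunit genes in single cells of B16F10 mouse melanoma tumours, chosen by name: the interferon-inducible catalytic subunits Psmb8, Psmb9 and Psmb10, the 2 PA28 activator subunits Psme1 and Psme2, and the constitutive catalytic subunits Psmb5, Psmb6 and Psmb7. They are 8 of the 31053 genes counted in each library. The rule names them and uses no measured value, but the set was proposed with earlier results of these data known. Tumours were dissociated, and cells were profiled by 5' single-cell RNA sequencing, with 1 library for each of 4 groups. The groups were D+F+P (the anthracycline doxorubicin, the ROCK inhibitor fasudil and an anti-PD-1 antibody, which blocks an inhibitory receptor of T cells), D+F (doxorubicin and fasudil), aPD-1 (that antibody by itself) and control (labelled as control, with no agent named). B16F10, a pigmented mouse melanoma line, was the tumour in all 4 groups. Mouse strain, age, doses, times and the number of mice in a library are not given in the sources used here. With 1 library per group, cells of 1 library are not replicates: each comparison below is between libraries, there is no test between groups, and every interval is an exact 95% interval that covers counting error only.

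The 20S proteasome is a barrel of stacked rings whose catalytic beta subunits cut unfolded proteins into peptides. Under interferon, above all interferon gamma, newly made barrels take up Psmb8, Psmb9 and Psmb10 in place of Psmb5, Psmb6 and Psmb7, which gives the immunoproteasome, and PA28, a ring of Psme1 and Psme2 products, caps the barrel. The peptides feed MHC class I through the Tap1 and Tap2 transporter, so this exchange is known as part of the way tumour cells display antigens to CD8 T cells. Lymphoid and dendritic cells are known to carry immunoproteasome without added interferon. Transcript counts say nothing of which subunits sit in assembled particles.

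Psmb9 and Psmb8 lie in the MHC class II region of chromosome 17 on either side of Tap1, Psmb9 at chr17:34181987-34187764 on the minus strand and Psmb8 at chr17:34197721-34201454 on the plus strand (GRCm38). Psmb9 overlaps the start of Tap1, on the opposite strand, by 212 bp, and 495 bp part the end of Tap1 from the start of Psmb8. Whether counting used strand is not given in the sources used here, so reads from the shared stretch could fall to either gene. Psme1 at chr14:55578123-55581529 and Psme2 at chr14:55587441-55591113 also neighbour each other, 5911 bp apart, and Psmb5 lies at chr14:54614119-54618022. Psmb10 lies at chr8:105935735-105938444, Psmb6 at chr11:70525367-70527858 and Psmb7 at chr2:38588036-38644087. Psme2b, an intronless copy of Psme2 at chr11:48945354-48946190, can share reads with it, and it was counted at about 20.9 CPM (the gene's UMIs scaled to 1000000 UMIs of the class) in D+F+P and 18.2 CPM in control melanoma-like cells.

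Of the 8 members, 7 had a RefSeq promoter window (GRCm38.p6, 250 bases before to 50 after the start). RefSeq's start sites differ from the ends of the gene models given above, so the windows of Psmb8, Psmb9 and Psme1 lie inside those models. The 5 windows that hold a searched motif or the shared Psmb9 and Tap1 start are shown, because the members fall into an interferon-inducible and a constitutive set. Each runs 5' to 3' on the gene's strand, with motif letters in capitals.
Psmb8, chr17:34197945-34198244, plus strand: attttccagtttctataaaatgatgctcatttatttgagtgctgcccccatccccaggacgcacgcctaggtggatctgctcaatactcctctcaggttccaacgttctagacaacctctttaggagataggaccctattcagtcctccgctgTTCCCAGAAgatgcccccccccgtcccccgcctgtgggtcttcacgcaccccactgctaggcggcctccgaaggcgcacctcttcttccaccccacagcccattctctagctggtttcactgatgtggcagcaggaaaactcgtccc
Psmb9, chr17:34187281-34187580, minus strand: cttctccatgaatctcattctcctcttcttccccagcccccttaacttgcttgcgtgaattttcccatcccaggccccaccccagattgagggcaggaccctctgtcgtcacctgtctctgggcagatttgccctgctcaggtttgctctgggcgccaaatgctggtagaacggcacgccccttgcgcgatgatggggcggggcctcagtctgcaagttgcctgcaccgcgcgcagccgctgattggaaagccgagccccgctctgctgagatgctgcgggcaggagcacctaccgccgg
Psme1, chr14:55578244-55578543, plus strand: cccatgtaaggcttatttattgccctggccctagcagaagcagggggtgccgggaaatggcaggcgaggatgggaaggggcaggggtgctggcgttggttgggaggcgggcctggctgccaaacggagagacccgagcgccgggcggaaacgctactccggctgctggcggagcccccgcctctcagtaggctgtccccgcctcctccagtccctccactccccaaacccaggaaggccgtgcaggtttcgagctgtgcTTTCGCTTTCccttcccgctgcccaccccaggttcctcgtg
Psmb5, chr14:54617946-54618245, minus strand: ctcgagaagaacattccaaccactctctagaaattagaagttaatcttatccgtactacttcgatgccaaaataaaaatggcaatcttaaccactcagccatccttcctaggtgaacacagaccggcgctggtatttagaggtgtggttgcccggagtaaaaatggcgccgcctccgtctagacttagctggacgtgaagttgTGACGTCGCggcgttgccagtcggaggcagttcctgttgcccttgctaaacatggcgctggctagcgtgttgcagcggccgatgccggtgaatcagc
Psmb6, chr11:70525107-70525406, plus strand: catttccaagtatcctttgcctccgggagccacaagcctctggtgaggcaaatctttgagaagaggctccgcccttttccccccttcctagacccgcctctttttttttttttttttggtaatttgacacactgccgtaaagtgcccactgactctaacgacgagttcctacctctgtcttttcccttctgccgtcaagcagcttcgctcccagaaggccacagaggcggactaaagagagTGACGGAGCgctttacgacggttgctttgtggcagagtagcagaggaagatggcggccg

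The capitals in Psmb8 mark a gamma-activated site (TTCNNNGAA, an element known from interferon gamma-responsive promoters), which 8.47% of 27025 promoter windows held on either strand. Those in Psme1 mark an interferon-stimulated response element core (GAAANNGAAA, known to be bound by interferon regulatory factors), which reads on the opposite strand and was in 3.49% of windows. Those in Psmb5 and Psmb6 mark an antioxidant response element core (TGACNNNGC, known to be bound by NRF2), which was in 12.5% of windows. No motif overlapped another. These motifs were not in the windows of Psmb9, Psmb10 and Psme2. A match is a run of letters, not a measured binding site, and its share among all promoters stands beside it for that reason.

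The files held 2739, 2809, 2525 and 2529 barcodes in D+F+P, D+F, aPD-1 and control, of which 2443, 2483, 2214 and 2275 were kept, with 1866, 12882, 9563.5 and 16143 median UMIs. Pairs of libraries shared between 2 and 17 barcodes. Melanoma-like cells numbered 531 in D+F+P, 1697 in D+F, 1096 in aPD-1 and 1886 in control, with medians of 28624, 16407, 18780.5 and 17802.5 UMIs. The D+F+P library stood apart in that 908 of its cells fell in cluster 13, against 105, 121 and 15 in D+F, aPD-1 and control. Cluster 13 held thin barcodes with few ribosomal protein transcripts and was left unnamed. All 10 melanoma markers were present in the melanoma-like cells of each library. The same markers were used to name these clusters, so their presence is no separate check of the label. Their summed level was 14197 CPM in D+F+P, 13432 CPM in D+F, 13329 CPM in aPD-1 and 13437 CPM in control.

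In melanoma-like cells the ratio of induced to constitutive subunits, summed UMIs of Psmb8, Psmb9 and Psmb10 over those of Psmb5, Psmb6 and Psmb7, was highest in D+F+P and lowest in control. It was 2.06 (2.01 to 2.11) in D+F+P, 1.49 (1.46 to 1.51) in D+F, 1.70 (1.67 to 1.73) in aPD-1 and 0.992 (0.976 to 1.01) in control, and no interval overlapped another. Against control, the ratio was 2.08-fold higher in D+F+P, a log2 difference of 1.05 (1.01 to 1.10), with differences of 0.58 (0.55 to 0.62) in D+F and 0.78 (0.74 to 0.81) in aPD-1. D+F+P stood 0.47 (0.43 to 0.51) above D+F and 0.28 (0.23 to 0.32) above aPD-1 on the log2 scale. A 5' UMI marks 1 captured transcript and was not divided by gene length, so the ratio is used to set cells and libraries side by side and its absolute size is not a stoichiometry. The ratio rested on 20508 induced and 9951 constitutive UMIs in D+F+P, and on 30841 and 31090 in control.

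Among the induced catalytic subunits, Psmb10, the inducible counterpart of the trypsin-like subunit Psmb7, differed most from control in D+F+P and D+F, while in aPD-1 it and Psmb9 both differed by 0.50 on the log2 scale. Psmb10 was at 330 CPM in D+F+P, 249 CPM in D+F, 245 CPM in aPD-1 and 174 CPM in control, a log2 difference from control of 0.92 (0.87 to 0.98) in D+F+P. Psmb10 was higher in all 3 treated libraries than in control, and D+F and aPD-1 were close to each other. Psmb9, the inducible counterpart of the caspase-like subunit Psmb6, was at 428 CPM in D+F+P, 362 CPM in D+F, 388 CPM in aPD-1 and 274 CPM in control, a log2 difference of 0.64 (0.60 to 0.69) between D+F+P and control. Psmb8, the inducible counterpart of the chymotrypsin-like subunit Psmb5, was at 635 CPM in D+F+P, 549 CPM in D+F, 649 CPM in aPD-1 and 499 CPM in control. Psmb8 had the smallest difference of the induced members, 0.35 (0.31 to 0.38) on the log2 scale in D+F+P against control, and D+F+P did not differ from aPD-1 beyond counting error for it, at -0.03 (-0.07 to 0.01).

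The 2 PA28 subunits went with the induced catalytic subunits. Psme1 was at 649 CPM in D+F+P, 521 CPM in D+F, 559 CPM in aPD-1 and 399 CPM in control, and Psme2 was at 595 CPM, 513 CPM, 508 CPM and 394 CPM in the same libraries. The log2 differences of D+F+P from control were 0.70 (0.66 to 0.74) for Psme1 and 0.59 (0.56 to 0.63) for Psme2. Summed PA28 UMIs over constitutive UMIs gave 1.84 in D+F+P, 1.32 in D+F, 1.41 in aPD-1 and 0.831 in control. The balance within PA28 moved little, with 1.09, 1.01, 1.10 and 1.01 Psme1 UMIs for each Psme2 UMI in D+F+P, D+F, aPD-1 and control.

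**Figure D1:**
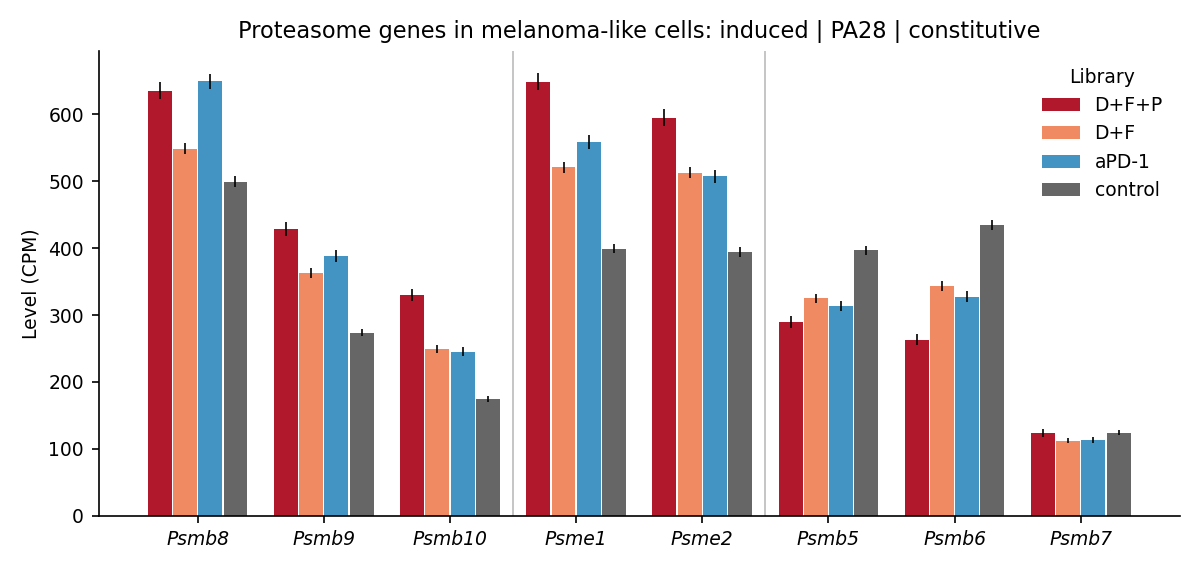
Level of the 8 subunit genes in melanoma-like cells, in CPM of the class, with bars for D+F+P, D+F, aPD-1 and control from left to right and exact 95% Poisson intervals (counting error only, 1 library each). The 5 induced and PA28 genes were lowest in control, where Psmb5 and Psmb6 were highest, and Psmb7 was at 124 CPM in both D+F+P and control.

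The constitutive side of the ratio was lower in the treated libraries, and unevenly so. Psmb6 was at 263 CPM in D+F+P, 343 CPM in D+F, 327 CPM in aPD-1 and 434 CPM in control, a log2 difference of -0.72 (-0.78 to -0.67) between D+F+P and control. Psmb5 was at 290 CPM in D+F+P, 325 CPM in D+F, 314 CPM in aPD-1 and 397 CPM in control, a difference of -0.45 (-0.50 to -0.40). Psmb7 was at 124 CPM in D+F+P, 112 CPM in D+F, 113 CPM in aPD-1 and 124 CPM in control, so D+F+P and control did not differ in it beyond counting error (log2 interval -0.08 to 0.08). The summed induced UMIs were at 1393 CPM in D+F+P and 947 CPM in control, a difference of 0.56 on the log2 scale, and the summed constitutive UMIs were at 676 CPM in D+F+P and 955 CPM in control, a difference of -0.50. Both sides of the ratio therefore moved by similar amounts.

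Taken pair by pair, each inducible subunit over the constitutive one it replaces, control was lowest in every pair. Psmb9 over Psmb6 was 1.63 in D+F+P, 1.06 in D+F, 1.19 in aPD-1 and 0.631 in control, so it was the one pair in which constitutive UMIs outnumbered induced ones in control. Psmb8 over Psmb5 was 2.19 in D+F+P, 1.69 in D+F, 2.07 in aPD-1 and 1.26 in control. Psmb10 over Psmb7 was 2.67 in D+F+P, 2.22 in D+F, 2.16 in aPD-1 and 1.40 in control. The log2 difference of D+F+P from control was 1.37 (1.30 to 1.44) for the Psmb9 pair, 0.93 (0.83 to 1.02) for the Psmb10 pair and 0.80 (0.74 to 0.86) for the Psmb8 pair. D+F was below aPD-1 in the Psmb8 and Psmb9 pairs and not in the Psmb10 pair.

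Counted at 1.5-fold, 4 of the 5 induced and PA28 members (all but Psmb8) were higher in D+F+P than in control melanoma-like cells, where 9.9% of 12099 genes with at least 20 UMIs were. Of the 3 constitutive members, Psmb6 was at least 1.5-fold lower, as were 10.6% of genes. In D+F against control, none of the 8 members passed 1.5-fold, against 7.4% of genes higher and 4.99% lower. The same held in aPD-1 against control, with 6.43% of genes higher and 6.08% lower. Between D+F+P and D+F no member passed it either (5.28% of genes higher, 4.87% lower), nor did one between D+F+P and aPD-1 (5.59% higher, 4.14% lower). The comparisons with control share the control library, and the last 2 share the D+F+P library.

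The rest of the proteasome was a little lower in the treated tumour cells. Of the 11 other 20S core subunits, none was 1.5-fold higher or lower in D+F+P than in control, against 9.9% and 10.6% of all genes. Those shares apply to the lists below too. The median log2 difference of these subunits was -0.33, against -0.09 over all genes. Summed, they differed from control by -0.19 in D+F+P, -0.16 in D+F and -0.22 in aPD-1 on the log2 scale. The 10 genes of the 19S base had a median of -0.25 and none past 1.5-fold, and the 8 genes of the 19S lid had a median of -0.32, with Psmd12 lower at -0.70. Among 8 assembly chaperones, Psmg2, which helps build the alpha ring, was lower at -0.62, while Pomp, the maturation factor that immunoproteasome assembly is known to draw on, was at 429 CPM in D+F+P, 375 CPM in D+F, 377 CPM in aPD-1 and 351 CPM in control. Psme3, the interferon-independent nuclear activator, was at 53.3 CPM in D+F+P and 62.2 CPM in control. With the 11 other 20S subunits as denominator, the log2 difference in D+F+P was 0.74 against control, 0.29 against D+F and 0.09 against aPD-1.

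Genes of class I peptide loading were higher alongside the induced members, 7 of 10 being at least 1.5-fold higher in D+F+P than in control, 4 in D+F and 4 in aPD-1, with none lower. Of all genes, 9.9%, 7.4% and 6.43% were that much higher in D+F+P, D+F and aPD-1 than in control, and 10.6%, 4.99% and 6.08% were that much lower. In D+F+P against control the largest log2 differences were 1.51 (1.34 to 1.69) for Tapbpl, a peptide editor, 1.23 (1.11 to 1.36) for Tap2, 1.12 (1.03 to 1.21) for Tap1 and 0.92 (0.82 to 1.01) for Tapbp, the tapasin gene. Tap1, which shares its start with Psmb9, was at 137 CPM in D+F+P, 104 CPM in D+F, 107 CPM in aPD-1 and 62.7 CPM in control, and had the same order over the libraries as Psmb9. The membership of this list was chosen with earlier results of these data known.

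Among the known regulators of these genes, Irf1 and Nlrc5 were at least 1.5-fold higher in D+F+P than in control melanoma-like cells, as were 9.9% of genes. Irf1, the transcription factor through which interferon gamma is known to switch on Psmb9, was at 212 CPM in D+F+P, 186 CPM in D+F, 165 CPM in aPD-1 and 88.1 CPM in control. Nlrc5, the class I transactivator, was at 49.3 CPM in D+F+P, 38.8 CPM in D+F, 48.3 CPM in aPD-1 and 26.8 CPM in control. The receptor genes did not follow: Ifngr1 was at 12.02 CPM in D+F+P and 16.6 CPM in control, and Ifngr2 at 55.2 CPM and 53.8 CPM. Jak1 was at 40.1 CPM in D+F+P and 38.6 CPM in control, and Jak2 at 11.3 CPM and 7.95 CPM. Of the factors that raise constitutive proteasome genes, Nfe2l1 was at 41.6 CPM in D+F+P and 44.9 CPM in control, Nfe2l2 at 77.0 CPM and 72.2 CPM, and Ddi2, the protease that activates the Nfe2l1 product, at 19.9 CPM and 16.6 CPM.

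The interferon gamma gene itself was read in lymphocytes. Ifng was at 247 CPM in D+F+P, 254 CPM in D+F, 317 CPM in aPD-1 and 120 CPM in control CD8 T-like cells, and at 144 CPM, 101 CPM, 269 CPM and 258 CPM in NK-like cells of the same libraries. Over all kept cells of a library Ifng was at 63.9 CPM in D+F+P, 15.4 CPM in D+F, 37.8 CPM in aPD-1 and 1.66 CPM in control. CD8 T-like cells numbered 488 in D+F+P, 259 in D+F, 389 in aPD-1 and 29 in control, and the part of cell make-up in the library-wide levels was not tested. Among the 4 libraries, the order of library-wide Ifng was the order of the melanoma-like ratio, a description of 4 points. Its part in the ratio was not tested.

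T cell and NK markers and Ptprc in the melanoma-like class were highest in D+F+P, then aPD-1, D+F and control, the order of the ratio, while monocyte and macrophage markers were not in that order. The summed level of 13 T cell markers there was 20.04 CPM in D+F+P, 6.09 CPM in D+F, 11.3 CPM in aPD-1 and 4.24 CPM in control, with Cd4 at 0 in aPD-1 and control, and that of 10 NK markers was 6.86 CPM, 2.48 CPM, 3.28 CPM and 1.47 CPM. Ptprc, which every leukocyte expresses, was at 2.72 CPM in D+F+P, 0.779 CPM in D+F, 1.21 CPM in aPD-1 and 0.583 CPM in control. The 14 monocyte and macrophage markers summed to 663 CPM in D+F+P, 587 CPM in D+F, 529 CPM in aPD-1 and 551 CPM in control, with Adgre1 at 0 in D+F+P, aPD-1 and control. Leaving out every melanoma-like cell with a UMI of Ptprc, Cd3e, Cd3g, Trac, Nkg7 or Tyrobp kept 378 cells in D+F+P, 1610 in D+F, 980 in aPD-1 and 1838 in control, and the log2 differences from control were then 1.08 in D+F+P, 0.59 in D+F and 0.78 in aPD-1.

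Cell by cell, the middle and both ends of the distribution lay higher in the treated libraries. In melanoma-like cells with at least 10 UMIs of the 6 catalytic genes, the median share of induced UMIs was 67.1% in D+F+P, 60.0% in D+F, 63.8% in aPD-1 and 48.3% in control. The 10th percentile was 48.3% in D+F+P, 37.8% in D+F, 45.5% in aPD-1 and 26.9% in control, and the 90th was 80.6%, 77.1%, 76.9% and 67.6%. Induced UMIs were in the majority in 87.1% of these cells in D+F+P, 70.2% in D+F, 81.9% in aPD-1 and 43.0% in control. The distributions overlapped, and counting noise in cells with few UMIs widens all of them. Single members were read in 76.8% to 96.8% of melanoma-like cells in every library.

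**Figure D2:**
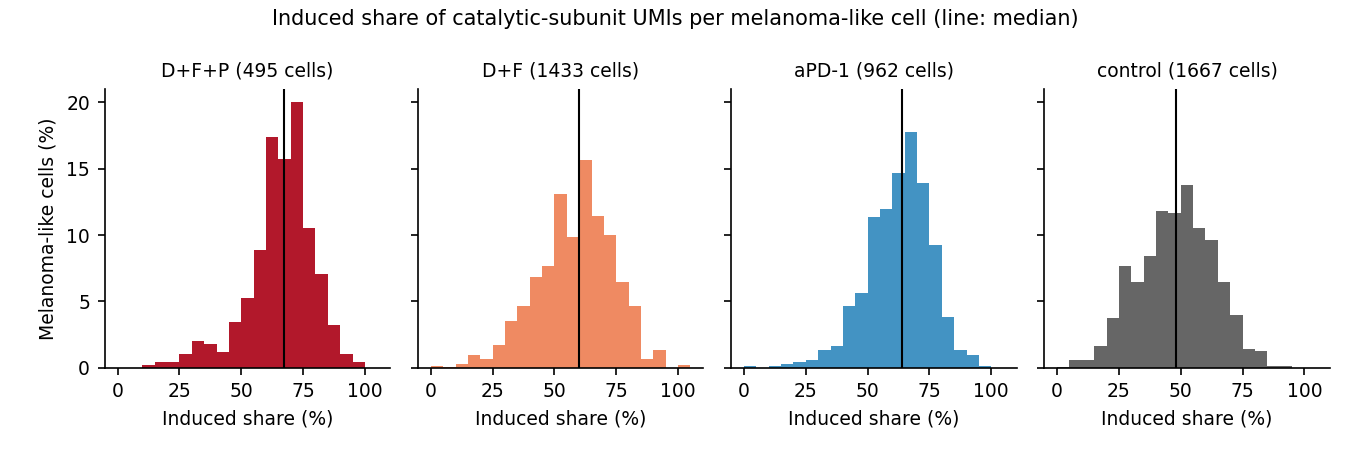
Distribution over melanoma-like cells of the induced share (%) of the 6 catalytic genes' UMIs, in bins 5 percentage points wide, in cells with at least 10 such UMIs, with 1 panel per library from D+F+P to control. The line in each panel is the median, at 67.1% in D+F+P, 60.0% in D+F, 63.8% in aPD-1 and 48.3% in control.

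Within the melanoma-like cells the ratio differed between clusters, which were found without the 8 members among the variable genes but with other interferon genes among them. Cluster 4, led by Cxcl10, Iigp1, Gbp2 and Igtp, which are known interferon-inducible genes, had the highest ratio in each library, at 2.40 in D+F+P, 2.14 in D+F, 2.15 in aPD-1 and 1.68 in control. Cluster 3, led by the proliferation genes Rrm2, Cdk1 and Aurkb, was at 0.901 in D+F+P, where it held 27 cells, 0.993 in D+F, 1.32 in aPD-1 and 0.793 in control. Clusters 1 and 2, both led by Car9 and Bnip3, genes known to be induced by hypoxia, were at 1.40 and 1.64 in D+F+P, at 1.17 and 1.36 in D+F, at 1.39 and 1.49 in aPD-1, and at 0.851 and 1.10 in control. Cluster 5, led by Ptgds and Gsta4, was at 1.98 in D+F+P, 1.60 in D+F, 1.77 in aPD-1 and 1.33 in control. Cluster 12, led by Neat1 and low in ribosomal protein transcripts, was at 2.10 in D+F+P, 1.47 in D+F, 1.47 in aPD-1 and 0.969 in control. Cluster 0, led by Ss18l2 and Trpm1, was at 1.07 in D+F, 1.17 in aPD-1 and 0.777 in control, and held too few cells in D+F+P.

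The ratio was above control in 6 of 6 clusters in D+F+P, 7 of 7 in D+F and 7 of 7 in aPD-1, with intervals apart in 5, 6 and 6 of them. The folds over control ran from 1.14 in cluster 3 to 2.17 in cluster 12 in D+F+P, from 1.21 to 1.52 in D+F, and from 1.28 to 1.66 in aPD-1. The mix of clusters differed as well, cluster 4 holding 43.5% of melanoma-like cells in D+F+P, 18.7% in D+F, 24.5% in aPD-1 and 8.01% in control. The 6 clusters present in all libraries were also weighted by their constitutive UMIs in control. At these weights the ratio was 1.44 in D+F+P, 1.29 in D+F, 1.51 in aPD-1 and 1.02 in control. The log2 difference of D+F+P from control was then 0.50, and that of D+F+P from aPD-1 was -0.07. The place of D+F+P above aPD-1 was therefore not kept at these weights. Cluster by cluster, D+F+P was above aPD-1 in 5 of the 6, with intervals apart in 3. It was below aPD-1 in cluster 3, at 0.685-fold. Cluster 3 had the largest weight, 9888 constitutive UMIs in control, and held 27 cells in D+F+P. Without cluster 4, D+F+P stood 0.92 above control.

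**Figure D3:**
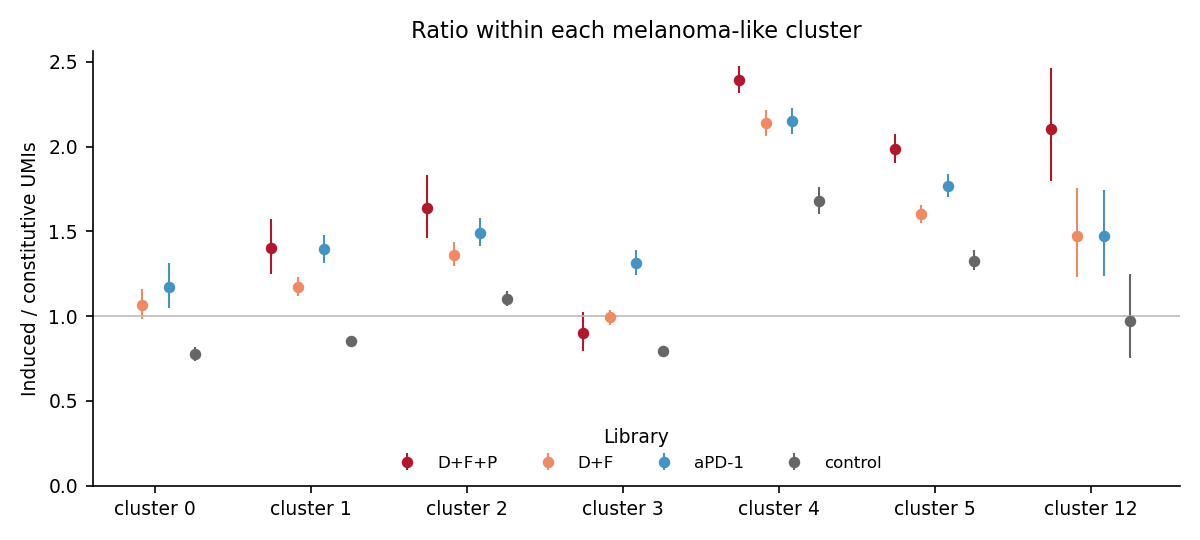
Ratio of induced to constitutive UMIs in each melanoma-like cluster with at least 20 cells in the library, with exact 95% intervals, D+F+P, D+F, aPD-1 and control from left to right. Control was lowest in every cluster, cluster 4 was highest in each library, and D+F+P in cluster 3 lay at 0.901.

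Outside the tumour cells, antigen-presenting and lymphoid cells had the highest ratios. Conventional DC-like cells were at 4.21 (3.44 to 5.20) in D+F+P, 3.45 (2.88 to 4.15) in D+F and 3.75 (3.22 to 4.39) in aPD-1, and at 6.27 in the 16 control cells, too few for a comparison. Regulatory T-like cells were at 3.56 (2.89 to 4.40) in D+F+P, 2.80 (2.16 to 3.66) in D+F and 3.48 (2.81 to 4.33) in aPD-1, and at 1.66 in 13 control cells. The intervals of these 2 classes overlapped in the treated libraries. Fibroblast-like cells were at 1.42 (1.19 to 1.70) in D+F+P and 0.823 (0.711 to 0.953) in aPD-1, the lowest of the named classes in both, with under 20 cells in D+F and control.

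CD8 T-like cells had a high summed ratio in every library, control included. It was 2.45 (2.35 to 2.55) in D+F+P, 2.25 (2.10 to 2.41) in D+F, 2.58 (2.44 to 2.73) in aPD-1 and 2.37 (1.77 to 3.21) in the 29 control cells. The log2 difference of D+F+P from control was 0.04 with an interval of -0.39 to 0.47, so a difference of the size seen in melanoma-like cells lies outside the counting interval, while smaller ones could not be told. The gap between the difference in melanoma-like and that in CD8 T-like cells has no replicate test. Psmb8 was at 1058 CPM in D+F+P, 1095 CPM in D+F, 1056 CPM in aPD-1 and 1075 CPM in control CD8 T-like cells, nearly the same in all 4. Psmb10 was at 235 CPM in D+F+P, 228 CPM in D+F, 219 CPM in aPD-1 and 111 CPM in control, the last from 12 UMIs. Of the 5 induced and PA28 members, Psmb10 alone was 1.5-fold higher in D+F+P than in control, as were 14.4% of genes, and none of the 8 members was that much lower, as were 39.9%. All genes had a median log2 difference of -0.32 there, and median-of-ratios scaling added 0.26 to each value.

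Among CD8 T-like cells, sub-cluster 0 had the highest ratio in D+F+P and D+F, with intervals that overlapped others. In D+F+P these were sub-cluster 7, at 2.85 (2.51 to 3.25), and sub-cluster 4, at 2.83 (2.59 to 3.11). In D+F they were sub-clusters 4, 5 and 9, with sub-cluster 4 at 2.92 (2.10 to 4.11). Sub-cluster 0 was led by genes that included S1pr1, Tcf7 and Id3, known from memory-like T cells. Its leading genes also held Ifit3, Slfn1 and Gbp2, the last an interferon-inducible gene that also led melanoma-like cluster 4. The ratio of sub-cluster 0 was 3.40 (2.89 to 4.02) in D+F+P, 3.88 (2.99 to 5.09) in D+F, 2.69 (2.10 to 3.48) in aPD-1 and 3.15 (1.88 to 5.50) in control. Sub-cluster 6, led by the granzymes Gzme, Gzmf and Gzmd, was at 1.95 (1.76 to 2.17) in D+F+P, 1.92 (1.65 to 2.23) in D+F and 2.32 (2.06 to 2.61) in aPD-1. Sub-cluster 3, led by the cycle genes Pclaf, Aurkb and Ccna2, was at 2.17 (2.01 to 2.35) in D+F+P, 1.93 (1.68 to 2.20) in D+F and 2.24 (1.92 to 2.62) in aPD-1. Sub-clusters 4, 5, 7 and 9 lay between 2.01 and 2.85 in D+F+P, between 2.17 and 2.92 in D+F, and between 2.68 and 2.96 in aPD-1, where sub-cluster 4 was the highest. Control held 20 cells in sub-cluster 0 and at most 3 in any other, so 69.0% of its CD8 T-like cells came from that sub-cluster, against 25.8% in D+F+P, 32.4% in D+F and 11.3% in aPD-1.

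Monocyte/macrophage-like and NK-like cells, by contrast, had low ratios in control. Monocyte/macrophage-like cells were at 2.31 (1.93 to 2.78) in D+F+P, 2.23 (1.88 to 2.64) in D+F, 2.13 (1.92 to 2.36) in aPD-1 and 1.24 (1.02 to 1.52) in control. The log2 differences from control were 0.89 (0.50 to 1.29) in D+F+P, 0.84 (0.45 to 1.23) in D+F and 0.78 (0.45 to 1.10) in aPD-1, and the 3 treated libraries did not differ from each other beyond counting error. In D+F+P against control, 4 of the 5 induced and PA28 members were at least 1.5-fold higher (all but Psmb8), as were 20.8% of genes, and none of the constitutive members was 1.5-fold lower, as were 18.9%. Psmb9 was at 329 CPM in D+F+P, 325 CPM in D+F, 355 CPM in aPD-1 and 199 CPM in control, and Irf1 at 615 CPM, 670 CPM, 545 CPM and 190 CPM.

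NK-like cells were at 2.30 (1.93 to 2.75) in D+F+P, 1.90 (1.42 to 2.56) in D+F, 1.97 (1.55 to 2.52) in aPD-1 and 1.01 (0.782 to 1.30) in control, from 74, 43, 43 and 41 cells. The log2 difference of D+F+P from control was 1.19 (0.74 to 1.64). In NK-like cells it lay more in the constitutive genes: Psmb5 was at 176 CPM in D+F+P and 310 CPM in control, and Psmb6 at 255 CPM and 413 CPM, while Psmb8 was at 680 CPM in D+F+P and 490 CPM in control. The PA28 genes did not go with the induced catalytic genes there. Psme1 was at 672 CPM in D+F+P and 762 CPM in control. Psme1 and Psme2 summed to 1135 CPM in D+F+P and 1329 CPM in control, a log2 difference of -0.23 (-0.47 to 0.02). Psmb9 alone of the 5 induced and PA28 members was 1.5-fold higher, as were 17.8% of genes, and 2 of the 3 constitutive members were as much lower, as were 20.2%.

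**Figure D4:**
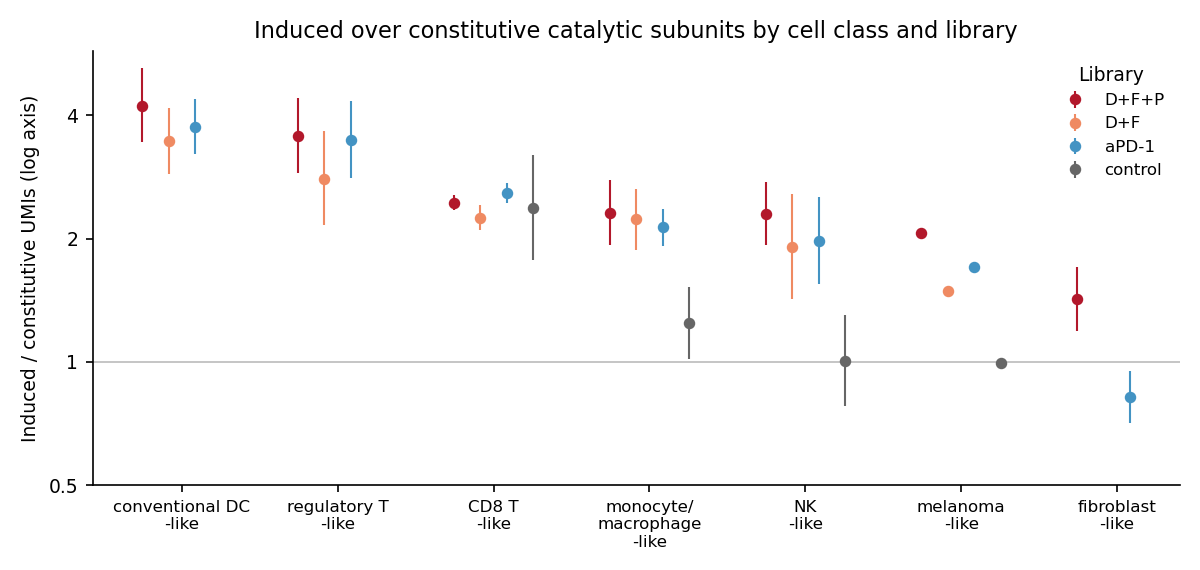
Ratio of induced to constitutive UMIs (log axis) by cell class with at least 20 cells in the library, with exact 95% intervals, D+F+P, D+F, aPD-1 and control from left to right. Control lay lowest in melanoma-like, monocyte/macrophage-like and NK-like cells. In CD8 T-like cells the wide control interval overlapped those of the treated libraries.

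Melanoma marker RNA was also read in the other classes and was highest in control monocyte/macrophage-like cells. The 10 melanoma markers summed to 506 CPM in D+F+P, 906 CPM in D+F, 1070 CPM in aPD-1 and 2035 CPM in control monocyte/macrophage-like cells, which is 3.57%, 6.74%, 8.02% and 15.1% of their level in melanoma-like cells of the same library. In NK-like cells those shares were 1.78% in D+F+P, 6.95% in D+F, 3.91% in aPD-1 and 3.07% in control. With melanoma RNA subtracted in these proportions, the ratio was 2.32 in D+F+P, 2.29 in D+F, 2.17 in aPD-1 and 1.30 in control monocyte/macrophage-like cells, and 2.31, 1.95, 1.99 and 1.01 in NK-like cells of the same libraries.

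**Figure D5:**
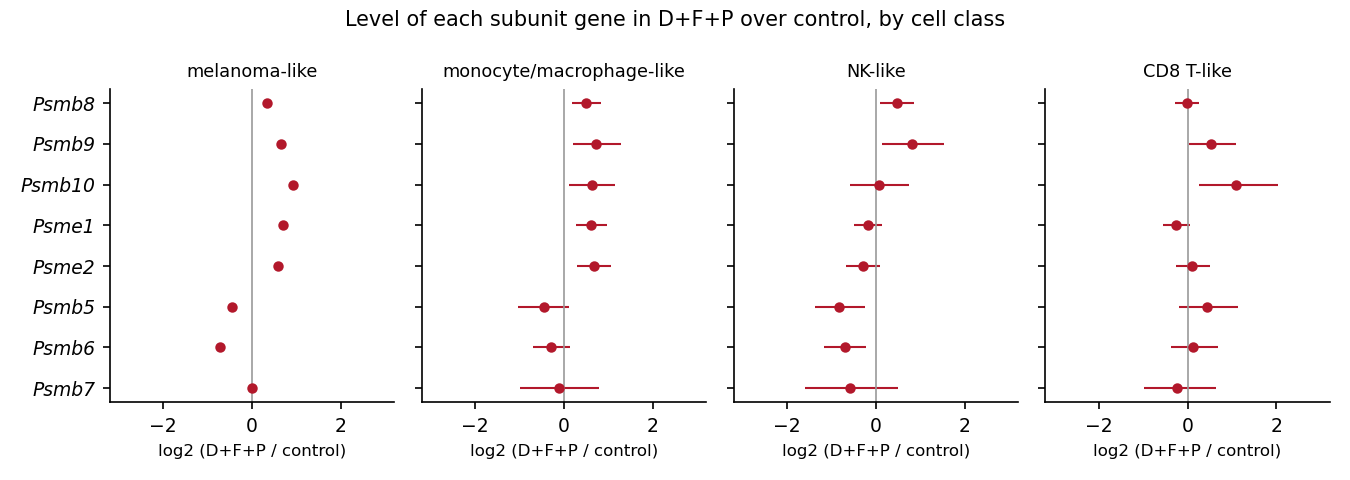
Log2 difference in level of each of the 8 subunit genes between D+F+P and control, in 4 cell classes, with exact 95% intervals (counting error only). The induced and PA28 genes lay right of 0 in melanoma-like and monocyte/macrophage-like cells, Psmb5 and Psmb6 lay left of 0 in melanoma-like and NK-like cells, and most intervals spanned 0 in CD8 T-like cells.

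The classes also differed in which pair carried the ratio. In D+F+P, Psmb8 over Psmb5 was 7.12 in conventional DC-like, 4.61 in regulatory T-like, 4.30 in monocyte/macrophage-like, 4.02 in CD8 T-like and 3.87 in NK-like cells, against 2.19 in melanoma-like cells. Psmb10 over Psmb7 in D+F+P ran from 2.03 in fibroblast-like and 2.13 in CD8 T-like to 4.31 in conventional DC-like cells, with 2.67 in melanoma-like cells. It was the highest pair in melanoma-like cells of every library and Psmb8 over Psmb5 was the highest in CD8 T-like cells of every library. Psmb9 over Psmb6 was the lowest pair in melanoma-like and monocyte/macrophage-like cells of all 4 libraries. The thymus-specific Psmb11 was at most 0.177 CPM in melanoma-like cells and had no UMI in CD8 T-like cells, and the testis-specific Psma8 had no UMI in melanoma-like cells.

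Ordered by ratio, 37 groups of cells with at least 20 cells ran from 4.21 in conventional DC-like cells of D+F+P to 0.5 in neutrophil-like cells of control. That lowest value came from 4 induced and 8 constitutive UMIs in 20 cells, with an interval of 0.110 to 1.87. Of the 36 steps between neighbours, 35 were within overlapping intervals. Over 23 class and library sums of at least 50 cells, the 8 genes out of 6030 whose log2(CPM + 10) was most like the log2 ratio were Ptpn18, Limd2, Csk, Glipr2, Serpina3g, Cnp, Ly6a and Map4k1, with Pearson r between 0.79 and 0.85. Tap1 came 13th with r = 0.76, Tap2 had 0.63, Irf1 0.53, B2m 0.51 and Nlrc5 0.21. The sums share libraries, differ in depth, and mix tumour, immune and unnamed thin clusters (6, 7, 13 and 21). The part of cell class in these correlations was not tested, and the values describe the sums without a test.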

How the data were processed

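Per the file headers, the deposited matrices hold UMI counts per gene and barcode with no normalization, and per the submitters' processing notes they came from Cell Ranger 3.1.0 on GRCm38 (mm10). The authors' later filters are not given in the sources used here. All of these files belong to mapped samples. The cell filter required 300 genes, 500 UMIs and a mitochondrial share of no more than 20%. Scrublet, in Scanpy 1.11.5, removed 46 of 9461 barcodes (0.486%, under the 0.5% at which the caller is taken to work). By library the share was 0.0818% in D+F+P, 0.281% in D+F, 1.16% in aPD-1 and 0.481% in control, so removal was uneven and doublets remain. Clustering used 2000 variable genes without the 8 members, 30 components, 15 neighbours and Leiden resolution 1. Clusters were named from marker lists of 16 classes, by a scoring rule set after seeing the data, and stayed unnamed where that failed. UMIs were summed per class and library (SciPy 1.17.1). Ratios carry Clopper-Pearson intervals, levels Poisson intervals and differences exact conditional intervals, all covering counting error only. The intervals of differences were tested on counts simulated with counting error alone, which cannot show how they cover real spread between cells or libraries. Fold counts used genes with at least 20 UMIs in the pair. The text names the 8 members, fixed regulators (1 is not reported here), list genes past 1.5-fold (up to 4 at each end) and the 8 most alike genes. Members and lists were chosen with earlier results of these data known. The alternatives were other cell filters, resolutions, classes, denominators, weights, thinning and scaling.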

Additional observations from a re-analysis of the deposited data

How the results depend on the processing

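The limits are 1 library per group, counting error as the sole error given, 29 CD8 T-like and 41 NK-like control cells, and classes rebuilt from transcripts. No paired analysis was possible because each group has 1 library, and no library could be left out. Of 70 recomputed melanoma-like log2 differences, 52 stayed within the interval of the reported value, among them all of those under another cell filter, no doublet removal, resolution 0.5 or 2, classes from single cells' markers, no immune UMI and cells thinned to 1000 UMIs (mean of 100 draws). In the order D+F+P against control, D+F against control, aPD-1 against control, D+F+P against D+F and D+F+P against aPD-1, the values were 0.74, 0.46, 0.66, 0.29 and 0.0861 with the other 20S subunits as denominator. With control cluster weights, chosen after seeing the data, they were 0.50, 0.35, 0.57, 0.15 and -0.0654, the last reversed. Without cluster 4, also chosen after, they were 0.92, 0.50, 0.73, 0.42 and 0.19. The mean of per-cell shares gave 0.85 for aPD-1 against control and 0.21 for D+F+P against aPD-1, and the mean of the 3 pairs gave 0.42 for D+F+P against D+F. The cause was not tested beyond what these constructions weigh. Thinning moved the CD8 T-like ratio to 2.70 in D+F+P, 2.66 in D+F, 2.74 in aPD-1 and 3.23 in the 23 control cells deep enough. Each of these lay above the interval of the reported ratio. So did the thinned fibroblast-like ratios, 1.74 in D+F+P and 0.967 in aPD-1, and the melanoma-like ratio of 1.76 in aPD-1. Of 87 recomputed class ratios 79 stayed within their interval. Of the 8 others, 7 moved under thinning and 1 under the stricter cell filter. Of 200 member differences 191 stayed within theirs under median-of-ratios scaling, none changing direction among those whose interval excluded 0.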

Other observations

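The unnamed thin clusters also carried the 8 genes. Cluster 6, at a median of 803 UMIs, led by AY036118 and mt-Nd6, had a ratio of 1.73 (1.23 to 2.45) in D+F+P, 1.17 (1.003 to 1.37) in D+F, 1.14 (0.951 to 1.37) in aPD-1 and 0.752 (0.622 to 0.908) in control, from 36, 156, 94 and 149 cells. Cluster 7, at a median of 720 UMIs, led by Gm26917 and Ly6d, had a ratio of 2.20 (1.27 to 3.94) in 64 cells of D+F+P and 3.54 (1.88 to 7.14) in 23 cells of aPD-1, with 13 cells each in D+F and control. Cluster 13 was led by Txk and Pde2a, at a median of 657 UMIs and 8.18% ribosomal protein UMIs. Its ratio was 1.72 (1.46 to 2.04) in the 908 cells of D+F+P, 1.46 (0.884 to 2.46) in D+F and 1.85 (1.20 to 2.90) in aPD-1. Control held 8 induced and 5 constitutive UMIs there. Cluster 21, led by Havcr2 and Serpine2, was at 2.09 (1.68 to 2.60) in D+F+P, 1.46 (0.685 to 3.22) in D+F and 1.69 (0.877 to 3.35) in aPD-1. Plasmacytoid DC-like cells, 11 to 14 a library, were at 1.62 in D+F+P, 2.93 in D+F, 3 in aPD-1 and 2.14 in control, with intervals that overlapped.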
